A study of Mus musculus with 19 samples.

Results

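Genes of protein quality control were followed in the extrachromosomal circular DNA (eccDNA) of mouse cervical spinal cord. They were chosen by symbol, through the prefixes Usp, Ube, Ubr, Ubqln, Fbxo, Fbxl, Fbxw, Psm, Trim, Rnf, Klhl, Cul, Herc, Hectd, Hsp, Dnaj and Atg, and 161 of the 8336 genes in the deposited table (1.93%) carried one of them. By the annotation, 158 of the 161 are protein coding. Hspd1-ps5 and Ube2d-ps are pseudogenes, Usp46os2 is a non-coding transcript, and Usp6nl (a regulator of Rab proteins) and Hspg2 (perlecan, a matrix proteoglycan) share a prefix but not the function.

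The ALS group comprised 9 male hSOD1G93A mice (B6.Cg-Tg(SOD1*G93A)1Gur/J), which constitutively overexpress a mutant human superoxide dismutase 1, taken between 18 and 21 weeks of age with a motor severity score of 1 or 2. Mutants without timely symptoms had been excluded. The control group comprised 10 sex- and age-matched C57BL/6J mice, and whether these were littermates is not given in the sources used here. From each animal, 400 ng of DNA was digested for 7 days with exonuclease V, which removes linear DNA, and the remaining circles were copied for 48 h by rolling circle amplification (RCA) and sequenced as 1 library.

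The measure is the produced per gene eccDNA (PpGC). A read that is split across the junction of a circle reveals an eccDNA, the split reads of all eccDNAs overlapping a gene are summed, and the sum is scaled for the length of the gene and given as log2(PpGC + 1). A value of 0 is thus the lack of an eccDNA supported by at least 2 split reads over the gene, and does not show that none existed. PpGC thus follows the split reads of circles that carry any piece of a gene, not the number of such circles, and says nothing of its transcript or protein.

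Cells dispose of unwanted proteins by tagging them with ubiquitin. An activating enzyme hands ubiquitin to conjugating enzymes (most Ube genes), ligases attach it to the substrate (Ubr, Herc, Hectd, Rnf and Trim genes, and complexes built of Cul scaffolds with Fbx or Klhl adaptors), and ubiquitin-specific proteases (Usp) remove it again. Ubiquilins carry tagged proteins to the proteasome (Psm), heat shock proteins (Hsp) and their J-domain partners (Dnaj) refold or deliver misfolded clients, and the autophagy machinery (Atg) encloses aggregates and organelles for the lysosome. Aggregates of ubiquitinated protein in motor neurons are a hallmark of ALS, and misfolded SOD1 is a client of these systems.

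Across libraries, an eccDNA overlapped 23.8 ± 9.90 (SD, n = 9) of the 161 genes per ALS library and 3.50 ± 4.28 (SD, n = 10) per control library, a difference of 20.3 genes and a ratio of 6.79. The ALS libraries ranged from 11 genes (ALS 6) through a median of 20 to 44 genes (ALS 3), and the control libraries from 0 (Control 5, 9 and 10) through a median of 1.50 to 12 genes (Control 1). In 8 of the 9 ALS libraries the number lay above every control, and ALS 6 lay between Control 1 and the others. A library pools all cells of its piece of cord, so that more cells with an eccDNA and more eccDNA per cell cannot be told apart.

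The whole table differed in the same direction. Over all 8336 genes, 1301 ± 459 (SD) genes per ALS library and 243 ± 208 (SD) per control library carried an eccDNA, a ratio of 5.35, and again 8 of the 9 ALS libraries exceeded every control. The table lists only genes with an eccDNA in at least 1 of the 19 libraries. As percent of these genes, an ALS library held an eccDNA over 14.8 ± 6.15% (SD) of quality control and 15.6 ± 5.50% (SD) of all genes. For a control library the values were 2.17 ± 2.66% (SD) and 2.92 ± 2.49% (SD). The annotation holds more coding genes, 537 with these prefixes and 21911 in all, so that shares of the annotated genes would be lower. Among the genes with an eccDNA in a library, the quality control genes made up 1.80 ± 0.226% (SD) in ALS, between 1.52% and 2.15%, which is close to their 1.93% of the table. Of the 161 genes, 130 (80.7%, all genes 75.0%) are in the table through ALS libraries alone. A share in ALS near 1.93% was thus largely set by how the table was formed, and is no result about these genes. In controls their share was 1.15 ± 1.00% (SD), between 0 and 2.75%, on far fewer genes. The 2.75% of Control 3 rests on 3 of 109 genes, with an exact Clopper-Pearson interval at 95% of 0.571% to 7.83%. Control 5 held 0 of 57 genes, which by a bound of 3 genes in the total allows a share of up to 5.26% (exact upper limit 6.27%). Control 9 held 0 of 214, which by the same bound allows up to 1.40% (exact upper limit 1.71%). Pooled over libraries, the share was 1.83% in ALS (214 of 11710) and 1.44% in controls (35 of 2434). These intervals and bounds cover counting error only, since RCA copies the same molecule many times.

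**Figure D1:**
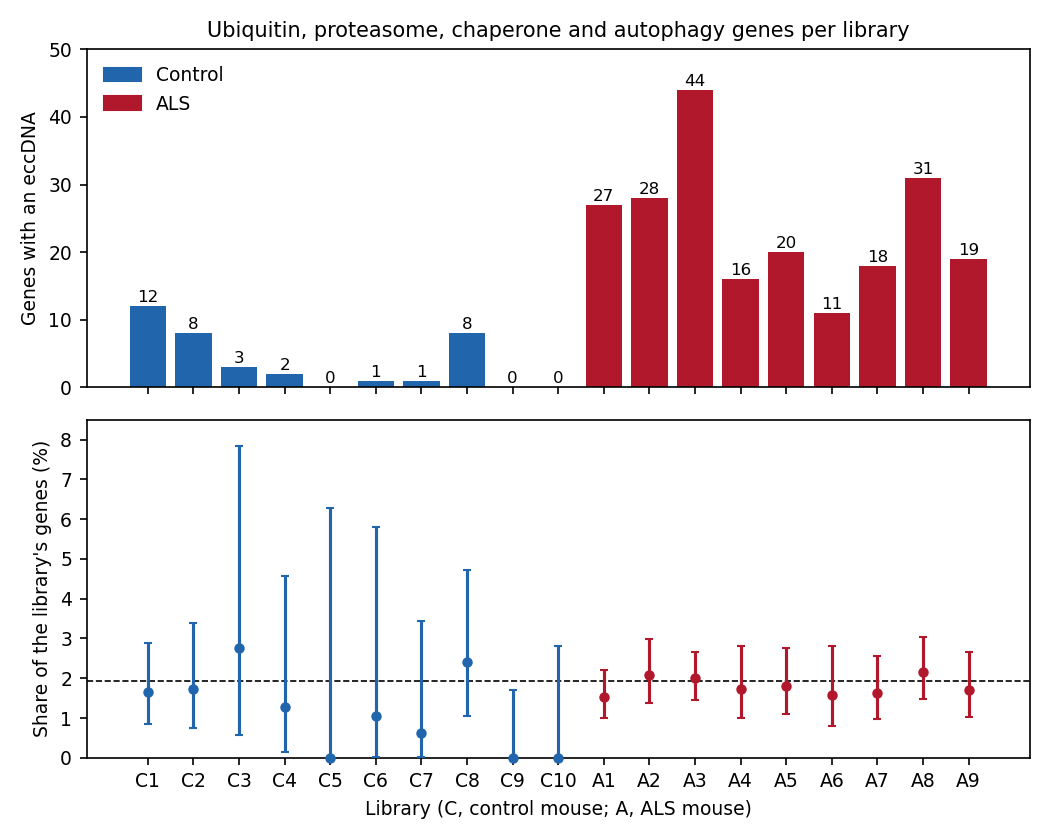
Upper panel, number of the 161 quality control genes with an eccDNA in each library (bars; C, control mouse; A, ALS mouse). Lower panel, their share in percent of all genes with an eccDNA in that library, with exact 95% intervals, and the 1.93% that they make up of the table as a dashed line. The ALS bars reach 11 to 44 genes and the control bars 0 to 12, while the shares of the ALS libraries lie between 1.52% and 2.15%.

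Series-wide facts limit what single genes can show. The split reads on genes ranged from 74016 to 391394 per ALS library and from 3583 to 123387 per control library, no sequencing depth is given in the table, and 91.1% of its values were 0. A pair of ALS libraries had at most 13.5% of its genes in common and a pair of controls 6.15%, so that each library was counted as 1 sample. The share of genes with an eccDNA per chromosome varied among the ALS libraries beyond counting noise on 10 chromosomes (1, 10 to 16, 18 and X, each with a chi-square per degree of freedom above 3), and 96 of the 161 genes lie on chromosomes 2 to 9, where the highest value was 1.95. Restricted to those chromosomes, the difference in quality control genes per library was 12.1 with a ratio of 7.37. The ratio over all genes of those chromosomes is not given here. The 7.37 thus lacks a matched background, and the 5.35 over all genes covers every chromosome. The endogenous mouse *Sod1* carried an eccDNA in 1 ALS library and 0 control libraries. That does not check the genotype, as the transgene is human, and DNA circles hold no cell type markers by which the tissue label could be checked.

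The count of quality control genes past the thresholds of the study's methods, a difference of group means above 1 on the log2 scale with a p under 0.01, depends on the side of the test, which the methods do not name. By the methods' t-test, run two-sided with equal variances, 0 of 161 genes were called higher in ALS, against 1.33% of all genes (111 of 8336), and 0 were called lower, against 0% of all genes. Run one-sided, the same test called *Dnajc5b*, *Fbxl17* and *Usp29* higher in ALS, 3 of 161 (1.86%) against 2.27% of all genes (189 of 8336). With an unadjusted p under 0.05, 5 of 161 (3.11%) were higher, against 4.20% of all genes, and 0 were lower, against 0%. By the exact permutation test over the 92378 assignments of the 19 libraries, 3 of 161 (1.86%) were higher with an unadjusted p under 0.05, against 3.72% of all genes. The smallest exact permutation p among the quality control genes was 0.0325, which became 0.581 after Benjamini-Hochberg adjustment over all genes, while these samples allow a p as small as 1.08e-05. With limma's moderated test, two-sided, *Fbxl17* was called (p = 0.00709, unadjusted), 1 of 161 against 1.99% of all genes. Leaving out 1 library gave between 0 and 2 calls in the two-sided test, against 1.02% to 1.60% of all genes (85 to 133). Without ALS 2, ALS 4 or ALS 6 both *Dnajc5b* and *Fbxl17* passed, without ALS 5 or ALS 7 *Dnajc5b*, and without ALS 3 or ALS 9 *Fbxl17*.

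The direction of the means was mostly upward, as over the table. Of the 161 genes, 142 had the higher mean log2(PpGC + 1) in ALS (88.2%, all genes 86.5%) and 19 in controls (11.8%, all genes 13.5%). The median difference was 1.15 against 1.19 over all genes, with a range of -1.95 to 4.20. An eccDNA was found in ALS libraries only for 130 of the genes (80.7%, all genes 75.0%), in control libraries only for 14 (8.70%, all genes 10.9%) and in both groups for 17 (10.6%, all genes 14.0%). Since most values are 0, such a difference is one of means over present and absent eccDNAs and not a fold change of a level. Where an eccDNA was present, the median log2(PpGC + 1) over the quality control genes was 8.52 in ALS and 8.52 in controls, against 8.84 and 8.72 over all genes.

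**Figure D2:**
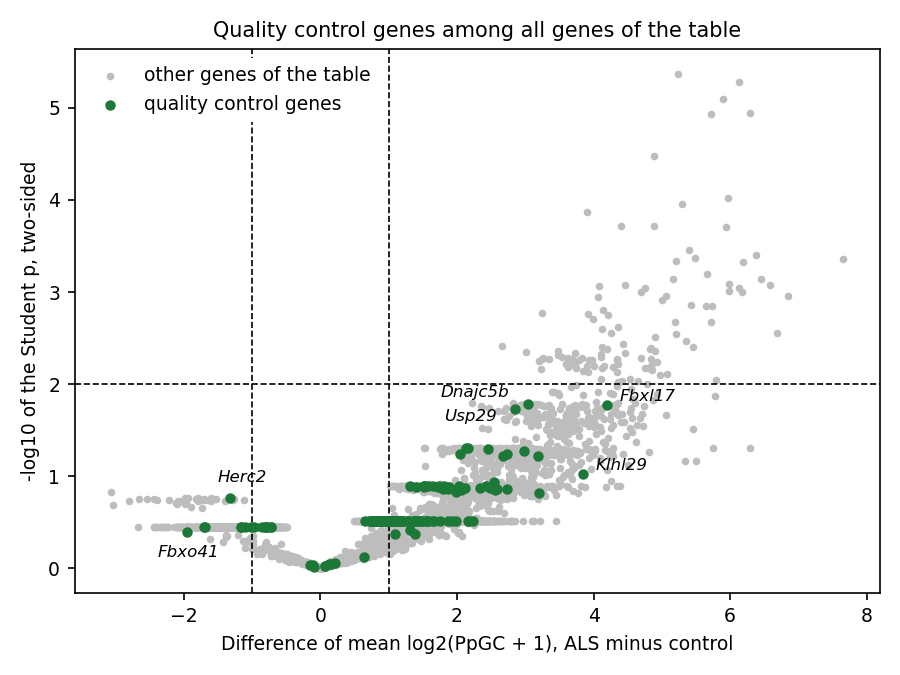
Difference of mean log2(PpGC + 1), ALS minus control, against -log10 of the two-sided p of the methods' t-test for the 8336 genes of the table, with the 161 quality control genes in green. Dashed lines mark differences of -1 and 1 and a p of 0.01; the green points lie between -1.95 and 4.20 and below the line of the p threshold in this two-sided test.

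Few of the genes recurred across libraries. All 111 genes called in the table by the two-sided test carried an eccDNA in at least 5 ALS libraries, and none of the quality control genes did so in more than 4. A gene with an eccDNA at one level in 4 ALS libraries and in 0 controls has a two-sided p of 0.0160 by the methods' t-test, above the threshold of 0.01, and an exact permutation p of 0.0325. With 5 such libraries the values are 0.00384 by the methods' t-test and 0.0108 by exact permutation. Of the 161 genes, 104 (64.6%, all genes 66.2%) had an eccDNA in a single library, 37 (23.0%, all genes 18.5%) in 2 libraries and 20 (12.4%, all genes 15.3%) in 3 or more. In at least 5 libraries there were 3 (1.86%, all genes 4.83%), and in at least 6 there were 0, against 2.98% of all genes.

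**Figure D3:**
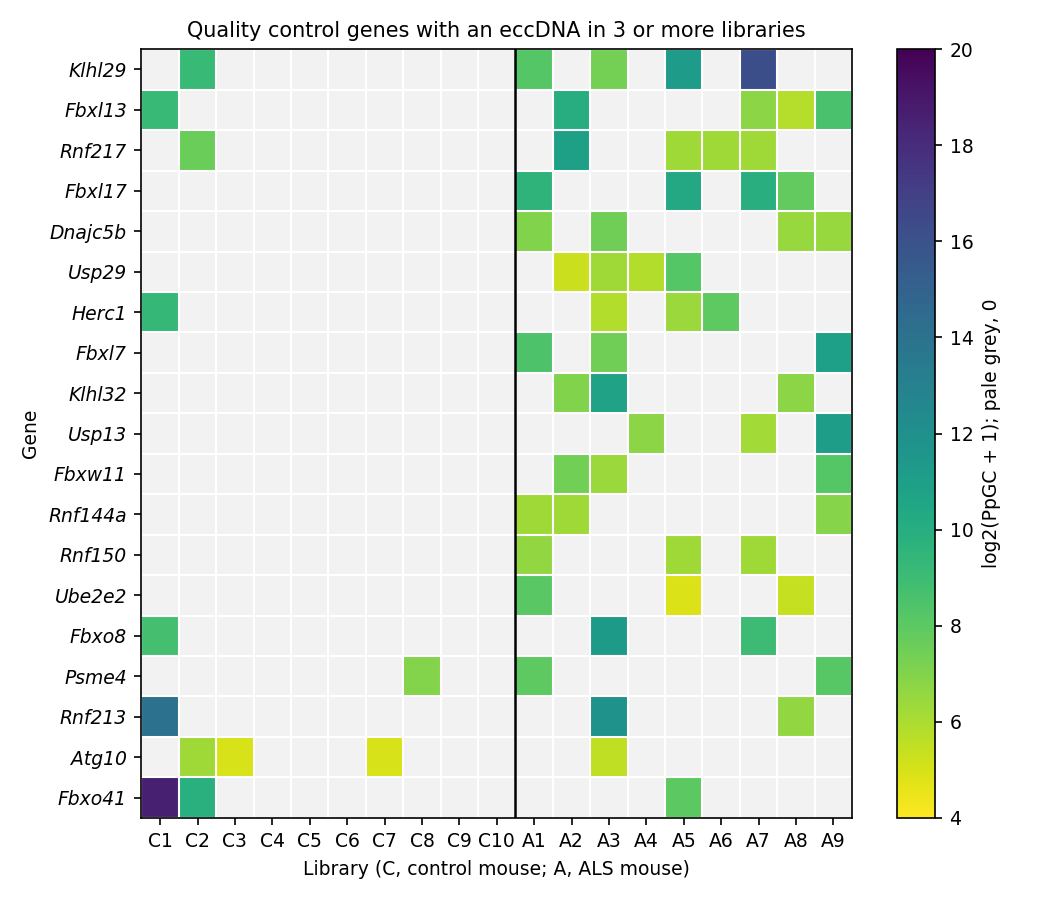
Log2(PpGC + 1) of 19 of the 20 quality control genes with an eccDNA in 3 or more of the 19 libraries (rows, genes; columns, control and ALS libraries to the left and right of the line). Pale grey stands for 0. The most libraries with a value are 5, the most ALS libraries 4, and the darkest square is *Fbxo41* in Control 1 at 18.59.

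Gene length went with recurrence. The annotation (GENCODE release M21, mm10) holds 537 protein-coding genes with these prefixes, of which 158 (29.4%) were in the table, against 6040 of all 21911 coding genes (27.6%). The listed quality control genes had a median length of 60.4 kb and those not listed one of 16.8 kb, and over all coding genes the medians were 61.6 kb and 11.4 kb. Up to 10 kb, 5.38% of the 130 quality control genes were listed, between 50 and 100 kb 52.3% of 86, and between 200 and 500 kb 12 of 12. The same classes over all coding genes gave 6.20%, 53.6% and 94.1%. In the table, quality control genes of 10 to 50 kb had an eccDNA in 1.03 ALS and 0.200 control libraries on average, and those of 200 to 500 kb in 2.67 and 0.333, where all genes of that class had 2.74 and 0.546. The genes called two-sided over the whole table had a median length of 513 kb, whereas the longest quality control gene, *Fbxl17*, spans 443 kb and 0 exceed 500 kb. In the class of 200 to 500 kb, 43 of 798 genes of the table (5.39%) were called and 0 of the 12 quality control genes.

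**Figure D4:**
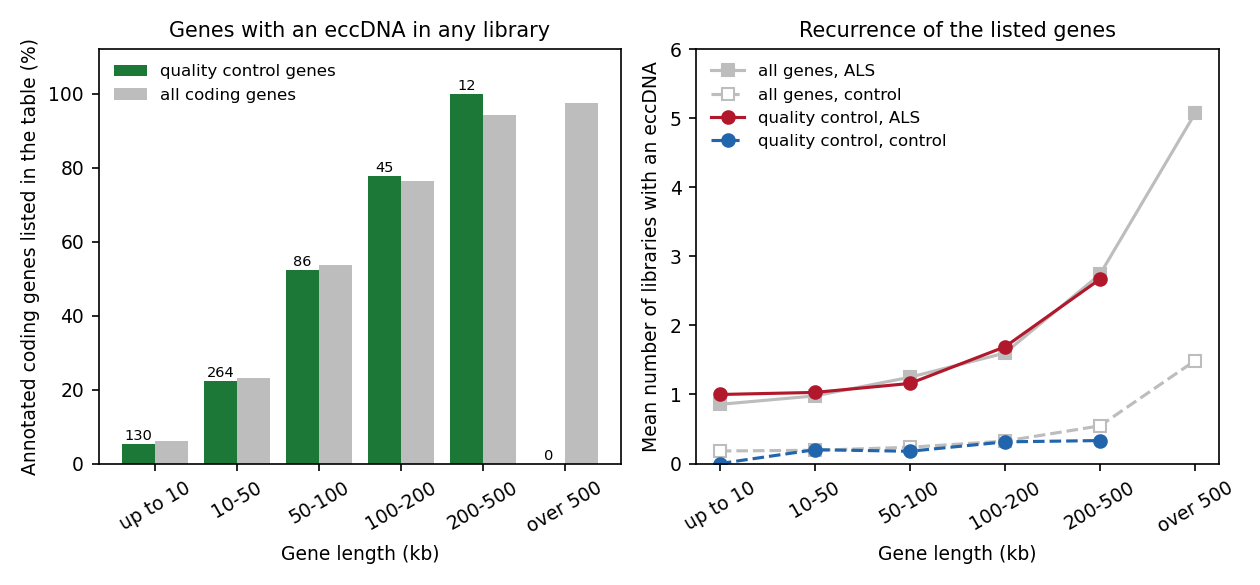
Left, percent of annotated coding genes listed in the table by gene length in kb, for quality control genes (green, with the number annotated) and all coding genes (grey). Right, mean number of ALS libraries (solid) and control libraries (dashed) with an eccDNA per listed gene; red and blue circles are quality control genes and grey squares all genes, which rise to 5.07 ALS libraries over 500 kb, a class without quality control genes.

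Across the families, the listed share of the annotated coding genes ranged from 17.6% to 83.3%. Among the ubiquitin-specific proteases 27 of 56 annotated coding genes (48.2%) were in the table, among the Ubr ligases 5 of 6 (83.3%), and among the proteasome genes 9 of 50 (18.0%) and the Trim genes 12 of 68 (17.6%). The median length of the annotated genes was 52.0 kb for Usp and 111 kb for Ubr, against 11.6 kb for Psm and 17.1 kb for Trim. Counting each gene with an eccDNA in a library as 1 occurrence, the 161 genes had 249, of which 214 lay in ALS and 35 (14.1%) in control libraries, against 17.2% in controls over all genes. Of these 35, 28 lay in Control 1, 2 and 8. The families were not tested against each other.

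**Figure D5:**
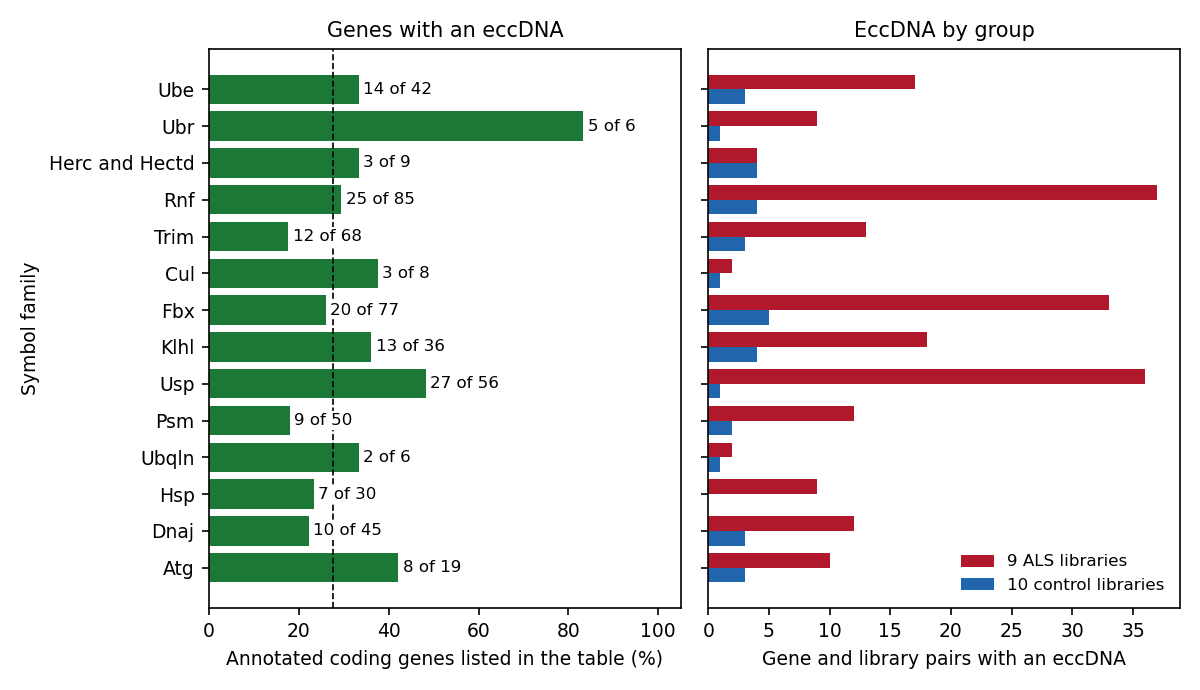
Left, percent of the annotated coding genes of each symbol family that are listed in the table, with their number; the dashed line marks the 27.6% of all coding genes. Right, gene and library pairs with an eccDNA in the 9 ALS and the 10 control libraries, from 37 and 4 for Rnf to 2 and 1 for Cul and for Ubqln; Herc and Hectd together had 4 and 4.

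Conjugating enzymes take ubiquitin from the activating enzyme. The 15 Ube genes, which also include the ligase genes *Ube3b*, *Ube3c* and *Ube4b* and the pseudogene *Ube2d-ps*, had 17 occurrences in ALS and 3 in control libraries. *Ube2e2*, a conjugating enzyme on chromosome 14 (18573575 to 18894267, mm10, 321 kb), was at 8.12 in ALS 1, 5.41 in ALS 8 and 4.84 in ALS 5, and at 0 in the other libraries. These stand for 20, 3 and 2 split reads, and the difference of means was 2.04 (2.04 ± 3.18 against 0, exact permutation p = 0.0867, higher in 3 of 9 ALS libraries). Without ALS 1 the difference was 1.28. *Ube2d2a*, a conjugating enzyme that works with many RING ligases, was found in Control 8 only, at 16.83 with 997 split reads, and its difference of -1.68 had an exact permutation p of 1.00. The sign of that difference rests on 1 library.

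Of the ligases that act without a cullin, the N-degron ligase family Ubr had 9 occurrences in ALS and 1 in controls. *Herc1*, a very large HECT ligase on chromosome 9 (66350450 to 66508775, mm10), was at 9.33 in Control 1, and at 5.83, 6.41 and 7.98 in ALS 3, 5 and 6. The control value exceeded each ALS value, so that the groups overlapped, with a difference of 1.31 (exact permutation p = 0.443), which was 0.60 without ALS 6 and 2.25 without Control 1. *Herc2*, its relative with a role at DNA breaks, was at 6.94 in Control 1 and 6.21 in Control 8 and at 0 in every ALS library (difference -1.32, exact permutation p = 0.474, and -0.69 without Control 1). Together with *Hectd4*, these genes had 4 occurrences in each group.

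The Rnf genes, a loose class of RING finger proteins, had 37 occurrences in ALS, of which 10 lay in ALS 2, and 4 in controls. *Rnf217*, on chromosome 10 (31493193 to 31609184, mm10), was at 10.90 in ALS 2 and at 6.28 in ALS 5, 6 and 7, and at 7.59 in Control 2. Only ALS 2 lay above the control value, with 50 split reads, while each 6.28 stands for 2 split reads, the least that was kept. The difference was 2.54 (3.30 ± 4.17 against 0.76 ± 2.40, exact permutation p = 0.119), and was 1.59 without ALS 2 and 3.30 without Control 2. *Rnf8*, a ligase that marks chromatin at DNA double strand breaks, was found in Control 1 only, at 17.07 with 939 split reads (difference -1.71, exact permutation p = 1.00). Genes outside the naming rule, chosen after their values were seen, include *Rnf144a* and *Rnf150*, each with an eccDNA in 3 ALS libraries at 2 to 5 split reads and in 0 controls (differences 2.16 and 2.14), and *Rnf213*, a giant ligase, at 14.06 in Control 1 against 11.84 and 6.57 in ALS 3 and 8.

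The 12 Trim genes, most of which pair a RING with B-box domains and which include antiviral factors, had 13 occurrences in ALS and 3 in controls. Of these genes, 0 reached 3 libraries. *Trim30c*, on chromosome 7 (104382065 to 104400837, mm10), was at 12.21 in ALS 1 and 10.69 in ALS 8, from 20 and 7 split reads, and its difference was 2.54 (exact permutation p = 0.211). *Trim24*, *Trim36* and *Trim44* also had an eccDNA in 2 libraries, and *Trim30c* had the largest absolute difference of these 4. *Trim44* was found in ALS 6 and 8 (difference 1.80). *Trim24* was at 8.35 in Control 3 and 6.55 in ALS 2 and *Trim36* at 9.87 in Control 2 and 7.56 in ALS 2, with the higher mean in controls for both (differences -0.11 and -0.15).

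Cullin ligases join a scaffold to a substrate adaptor. Of the scaffolds, *Cul1*, which holds F-box proteins, was at 8.26 in ALS 1, *Cul3*, which holds the Klhl proteins, at 6.89 in ALS 4, and *Cul5* at 7.91 in Control 4, each in that library only. Among the adaptors, the 20 F-box genes had 33 occurrences in ALS and 5 in controls, and the 13 Klhl genes 18 and 4.

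*Fbxl17*, an F-box protein that removes wrongly paired BTB domain proteins, lies on chromosome 17 (63057452 to 63500017, mm10) and had the largest difference among the 161 genes. It was at 9.59 in ALS 1, 10.36 in ALS 5, 9.96 in ALS 7 and 7.85 in ALS 8, from 77, 131, 99 and 23 split reads, and at 0 in the other 5 ALS and the 10 control libraries. The difference was 4.20 (4.20 ± 5.02 against 0, exact permutation p = 0.0325, adjusted 0.581, higher in 4 of 9 ALS libraries). It is named after its values were seen, as are the genes *Fbxl7*, *Fbxw11* and *Klhl32*, which were found in 3 ALS libraries each and in 0 controls, with differences of 2.99, 2.45 and 2.74. *Fbxl13*, on chromosome 5 (21483847 to 21645634, mm10), was at 10.03 in ALS 2, 6.79 in ALS 7, 5.80 in ALS 8 and 8.59 in ALS 9, and at 9.17 in Control 1. The control value lay between the highest ALS value and the rest, and the difference was 2.55 (exact permutation p = 0.184). In Control 1 and ALS 8 the overlapping gene *Lrrc17* had the same number of split reads, as when 1 eccDNA is counted for both genes.

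*Klhl29*, a kelch-like adaptor on chromosome 12 (5077472 to 5375682, mm10), was at 8.22, 7.36, 11.22 and 16.17 in ALS 1, 3, 5 and 7 and at 9.22 in Control 2. Its 4954 split reads in ALS 7 were the most for any of the 161 genes and made up 73.1% of that library's 6774 split reads on quality control genes. The other 3 ALS values stand for 20, 11 and 160 split reads and the control value for 40, so that 2 ALS values lay below it. The difference was 3.85 (4.77 ± 6.16 against 0.92 ± 2.92, exact permutation p = 0.0975), and 2.43 without ALS 7. *Fbxo41*, an F-box protein of neurons on chromosome 6 (85469574 to 85502994, mm10), had the most negative difference, -1.95 (exact permutation p = 0.598). It was at 18.59 in Control 1 with 2966 split reads, at 9.86 in Control 2 with 7 and at 8.06 in ALS 5 with 2, and at 0 elsewhere. Without Control 1 the difference was -0.20.

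The ubiquitin-specific proteases, which edit or remove ubiquitin chains, had 36 occurrences in ALS and 1 in controls, the latter being *Usp24* in Control 8 at 7.16. The ALS occurrences were spread over all 9 libraries, with 2 to 6 in each. *Usp29*, on chromosome 7 (6730578 to 6967219, mm10), was at 5.27 in ALS 2, 6.25 in ALS 3, 5.84 in ALS 4 and 8.23 in ALS 5, from 2, 4, 3 and 16 split reads. Every control was at 0, and the difference was 2.84 (2.84 ± 3.46 against 0, exact permutation p = 0.0325, adjusted 0.581, higher in 4 of 9 ALS libraries). *Usp13*, named after its values were seen, was found in ALS 4, 7 and 9 with 3, 2 and 58 split reads (difference 2.68, exact permutation p = 0.0867). *Usp8*, a protease of endosomal sorting, was at 7.42 in ALS 5 only, where *Usp50*, which overlaps it, had the same 2 split reads.

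Proteasome genes were found 12 times in ALS, of which 4 in ALS 3, and 2 times in controls. *Psme4*, the gene of the nuclear proteasome activator PA200, was at 7.94 in ALS 1, 8.16 in ALS 9 and 6.95 in Control 8, from 6, 7 and 3 split reads (difference 1.09, exact permutation p = 0.334; 0.30 without ALS 9 and 1.79 without Control 8). It was at 0 in the other libraries, and no other proteasome gene was found in 3 libraries. Of the catalytic core, *Psmb7* (a proteolytic subunit) and *Psma8* (the alpha subunit of germ cells) were both found in ALS 3 and ALS 8, with differences of 2.48 and 2.00, and of the regulatory particle *Psmc3*, *Psmc4* and *Psmd1* in 1 ALS library each. *Psmd9* and *Psmg1*, assembly chaperones, were found in ALS 5 and 7 and in Control 1 respectively, and *Psmf1*, an inhibitor of the core, in ALS 3. The ubiquilin *Ubqln1*, a shuttle between ubiquitin tags and proteasome, was at 10.13 in ALS 3 and 9.14 in Control 8 (difference 0.21, exact permutation p = 0.737). Its difference was -0.91 without ALS 3 and 1.13 without Control 8, and was also negative with that covariate.

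Of the 8 genes with the prefix Hsp, 6 remain as chaperone genes once *Hspg2* and the pseudogene *Hspd1-ps5* are set aside. These 6 had 7 occurrences in ALS, 4 of them (57.1%) in ALS 8, and 0 in controls. All 8 had 9, with 6 (66.7%) in ALS 8, which held 12.4% of the occurrences of all 161 genes. The share in controls, 0 of 9, compares with 14.1% for the 161 genes and 17.2% over all genes. *Hspa12a*, an atypical heat shock protein, was at 7.72 in ALS 6 and 5.93 in ALS 8 (difference 1.52, exact permutation p = 0.211, and 0.74 without ALS 6). The other 7 genes with the prefix were found in 1 library each. The 10 J-domain genes had 12 occurrences in ALS and 3 in controls. *Dnajc5b*, which encodes a cysteine string protein, lies on chromosome 3 (19508595 to 19610862, mm10) and was at 7.03 in ALS 1, 7.45 in ALS 3, and 6.46 in ALS 8 and ALS 9. These values rest on 3, 4, 2 and 2 split reads, and every control was at 0. The difference was 3.04 (3.04 ± 3.62 against 0, exact permutation p = 0.0325, adjusted 0.581, higher in 4 of 9 ALS libraries). In ALS 1 and ALS 8 the overlapping gene *1700064H15Rik* had the same number of split reads. *Dnajc5*, the cysteine string protein of synaptic vesicles, was at 8.59 in ALS 5 only.

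The autophagy genes had 10 occurrences in ALS and 3 in controls, and all 3 of the latter belong to *Atg10*, the conjugating enzyme that joins Atg12 to Atg5. *Atg10* lies on chromosome 13 (90935356 to 91223968, mm10) and was at 6.28 in Control 2, 4.99 in Control 3 and 4.99 in Control 7, and at 5.56 in ALS 3. It had an eccDNA in more control libraries than any other of the 161 genes, from 5, 2, 2 and 3 split reads, and the groups overlapped (difference -1.01, exact permutation p = 0.512). Without Control 2 the difference was -0.49 and without ALS 3 it was -1.63. *Atg7*, the activating enzyme of the same conjugation system, was at 7.17 in ALS 2 and 5.38 in ALS 6 (difference 1.39, exact permutation p = 0.211, and 0.67 without ALS 2). *Atg5* was at 9.12 in ALS 1.

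Genes whose human counterparts are linked to motor neuron disease or to other disorders of ubiquitin or chaperones in the nervous system were looked up from a list of 20 names. The table held 6 of them, *Ubqln1*, *Dnajc5*, *Klhl7*, *Usp8*, *Atg5* and *Atg7*, each with an eccDNA in 1 or 2 libraries. *Klhl7* was at 14.68 in Control 8 and 12.39 in ALS 5, from 356 and 73 split reads, with a difference of -0.09 (exact permutation p = 1.00). The other 14 were not listed in the table used here. Among these are the short genes *Ubqln2* (3.34 kb), *Hspb1* (1.65 kb) and *Hspb3* (0.781 kb), and also the longer *Trim2* and *Dnajc6* (146 kb each) and *Ube3a* (82.8 kb).

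The reads behind the values were few. With the length scaling undone, the split reads came out whole in 248 of the 249 occurrences (within 0.02), with a median of 5.00 (all genes 7.00) and quartiles of 2.00 and 20.0. In 65 occurrences (26.1%) there were 2 split reads, so that the loss of 1 read would have removed the eccDNA. At the other end, 24 occurrences in 23 genes had 100 or more and held 90.6% of the 31146 split reads on quality control genes. After *Klhl29*, the highest were *Fbxw15* and *Fbxw24* in ALS 4 with 4085 each, *Fbxo41* in Control 1 with 2966 and the histone H2B ligase gene *Rnf20* in ALS 8 with 2858. These genes were named after their values were seen.

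Other genes of protein quality control, whose symbols lack these prefixes, were taken from a list of 328 names, of which 119 were in the table. By the methods' t-test with both thresholds, run two-sided, 0 were called higher, against 1.33% of all genes, and 0 lower. Run one-sided it called 4 higher, against 2.27%, and limma's moderated test called 3, against 1.99%. With an unadjusted two-sided p under 0.05 5 were higher, against 4.20%. The mean was higher in ALS for 109 of the 119 and lower for 10, with a median difference of 1.17. Some of the 5 are named here after their values were seen. *Tbc1d5*, a regulator of retromer and autophagy of 446 kb, was found in 6 ALS libraries and 1 control (difference 4.87, exact permutation p = 0.0126). *Fancl*, *Peli2* and *Uvrag* were found in 4 ALS libraries and 0 controls each, with differences of 4.29, 4.01 and 3.07 (exact permutation p = 0.0325 for each). Adjusted over all genes, each of the 5 had a p of 0.581. By group, 46 of 50 further ligases and adaptors and 30 of 32 regulators of autophagy and lysosome had the higher mean in ALS. So had 9 of 12 further chaperones and co-chaperones, 8 of 9 deubiquitinases, 11 of 11 ubiquitin-binding and extraction factors and 5 of 5 genes of ubiquitin activation and conjugation, against 86.5% of all genes.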

How the data were processed

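EccDNA of cervical spinal cord was measured in 9 ALS and 10 control libraries. The authors mapped reads to mm10 with Circle_Finder, merged eccDNAs closer than 10 bp, kept those with at least 2 split reads outside mitochondrial DNA, intersected with GENCODE genes using bedtools and deposited log2(PpGC + 1), without scaling between samples. The GENCODE release is not given in the sources used here. As the values were not scaled between libraries, differences in depth or RCA yield could enter every gene. Neither was tested.

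Values were used as deposited, and lengths and positions were matched by symbol to GENCODE release M21. Student's test, the test of the methods, was run two-sided with equal variances on all genes, as were limma's moderated test and the exact permutation test, with Benjamini-Hochberg adjustment over the 8336 genes. The quality control genes and lists were chosen with earlier results of these data known, and no p was adjusted over them alone. Genes were named when called, in at least 5 libraries, among the 3 most negative or the 3 with the most control libraries, most recurrent in their family (ties by the larger absolute difference), or linked to disease. The results of some genes are not reported here. Others are marked where they appear, or stand as the full list of a small group. Alternatives were limma, exact and adjusted p-values, other thresholds, a covariate, a replicate block, equal totals, no length scaling, another pseudocount, presence, and subsets of genes and libraries. Same-numbered ALS and control libraries were checked for pairing and showed no sign of it (correlations of -0.021 to 0.023). With 91.1% of values at 0 this check could not exclude pairing, and the libraries were treated as unpaired. Functions were tested on simulated data. Python 3.11.15 with SciPy 1.17.1, NumPy 2.4.6, pandas 2.3.3 and matplotlib 3.10.9 were used, besides limma 3.58.1 in R 4.3.3.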

Additional observations from a re-analysis of the deposited data

Results flagged for a closer look

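*Fbxo41* stood out in 1 library. Among the 10 control libraries its log2(PpGC + 1) was 18.59 in Control 1, from 2966 split reads, against 9.86 in Control 2 and 0 in the others, and the gap to the next library exceeded the limit for a single outlying value. The difference of -1.95 became -0.20 without Control 1. The limit is set for normally distributed values, of which about 1 in 20 groups would exceed it. Most control values of *Fbxo41* are 0, so that this rate does not apply and no chance rate is given for the gap. In all, 19 groups of values were examined here, leaving out those with fewer than 2 values above 0.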

How the results depend on the processing

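The count of 0 quality control genes higher in ALS became 1 with limma's moderated test (all genes 1.99%), 5 with a p under 0.05 (4.20%), 3 with a one-sided p (2.27%) and 0 to 2 with 1 library left out (1.02% to 1.60%), and was 0 under the other alternatives run. The count of 0 lower became 2 (*Klhl2* and *Rnf213*), against 84 of all genes (1.01%), with the load of a library (its genes with an eccDNA) as covariate, which follows the group, since 8 of 9 ALS libraries exceed every control in it. For the other quality control genes by name, the count of 0 higher became 3 with limma, 1 with the covariate (all genes 0.312%), 5 with a p under 0.05, 4 with a one-sided p and 0 to 2 with 1 library left out (above 0 without Control 4 or ALS 1, 4, 5, 6, 7 or 9), against the shares of all genes given above. The replicate numbers showed no sign of pairing, and a replicate block gave 0 higher and 0 lower. The difference of 20.3 genes per library was 17.8 to 21.9 with 1 library left out, 12.1 with a log2 value of at least 8, 17.4 without Hsp, Dnaj and Atg genes, and 19.7 without 5 symbols of other function, a choice made after seeing the data. Matching values over all genes are not given for these settings. The difference in share, 0.646 percentage points, ranged from 0.518 to 0.824 with 1 library left out. Of 138 alternatives for single genes, 129 kept the direction and 9 reversed it. With the covariate, the difference became -1.19 in *Atg5*, -1.08 in *Cul1*, -1.92 in *Dnajc5b*, -0.57 in *Herc1*, 0.44 in *Klhl7*, -0.34 in *Psme4*, -1.16 in *Trim30c* and -4.86 in *Ubqln1*, and by presence alone 0.0111 in *Klhl7*. With 1 library left out, *Klhl7* ranged from -1.47 (without ALS 5) to 1.38 (without Control 8), with 0.08 when any other ALS library was dropped, and *Ubqln1* from -0.91 (without ALS 3) to 1.13 (without Control 8). In all, 19 of 23 named genes had a difference that moved by over 1.5 times when 1 library was dropped. The exceptions were *Dnajc5b* (2.49 to 3.42), *Fbxl13* (1.73 to 3.47), *Fbxl17* (3.43 to 4.72) and *Usp29* (2.17 to 3.20). The cause was not tested. The median difference over all genes, 1.19, was 1.05 with equal totals, 0.35 without length scaling, 0.39 with a pseudocount of 100 and 0.34 with the covariate. The table holds no sequencing depth, and 26.1% of the 249 quality control gene values above 0 rest on the minimum of 2 split reads.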

Other observations

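Some quality control genes are neighbours in gene clusters, so that 1 eccDNA can enter the values of several. *Fbxw15* and *Fbxw24*, paralogues 32.9 kb apart on chromosome 9, both had 4085 split reads in ALS 4 (log2(PpGC + 1) of 20.14 and 19.47). *Herc1* and *Usp3*, 5.86 kb apart, both had 2 split reads in ALS 3, and *Usp46* and its antisense transcript *Usp46os2* both had 10 in ALS 4. In all, 31 of the 161 genes overlapped another gene of the table, and 25 of them had the read number of the overlapping gene in at least 1 library. In ALS 8, *Trim30b* and *Trim30c*, 12.2 kb apart, had 528 and 7 split reads, so that neighbours also carried separate read numbers.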
